A study of Mus musculus with 19 samples.

Results

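Choroid plexus transcripts are described here across 19 libraries of microdissected mouse hippocampal CA1 tissue, a region that holds no choroid plexus of its own. The members were 10 known marker genes of that epithelium, namely Ttr, Folr1, Clic6, Kl, Otx2, Aqp1, Sostdc1, Enpp2, Slc4a5 and Calml4, out of 48709 genes in the count files. All 10 were found, and 9 of them were among the 19286 genes that passed the read filter (5 or more reads in 50% or more of the libraries). Folr1 reached 5 reads in only 7 libraries and was left out of the tests across genes. The question was how far these transcripts varied between libraries within a group, and whether the groups differed.

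The choroid plexus is a sheet of epithelial cells that hangs into the brain ventricles and secretes the cerebrospinal fluid. It lies against the hippocampus along the choroid fissure, so small pieces can come with a hippocampal dissection. Its cells carry thyroid hormone and folate into the fluid, move ions and water, and release signalling proteins.

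Male C57B/6J mice were used. Young mice of 3 months (young, n = 6) and mice of 16.5 months (old control, n = 6) had received scrambled oligonucleotides per the study's methods. A further set of mice of 16.5 months (old anti-miR-mix, n = 7) had received a mix of inhibitors, of miR-148a-3p, of miR-181a-5p and of miR-146a-5p. All 3 groups were injected into the dorsal hippocampus on both sides with lipid nanoparticles, and the study tested such mice in the water maze after the injection. Control libraries, young and old, carry titles that also open with anti-miR-mix, so groups follow the sample descriptions. No uninjected mice entered any comparison, and no young mice received the inhibitors.

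Libraries held 26653511 to 38908947 reads assigned to genes. The labels number the libraries within each group and do not say that each came from a separate animal, so p-values measure the spread between libraries, which may be partly technical. Old control replicates 5 and 6 were far more alike than any other pair (chi-square per degree of freedom 2.18 over 12780 genes, against 6.10 for the next pair). They differed by more than sampling noise and were kept as separate libraries, and results that rest on them are given without them too. That difference does not show that they came from separate animals, which is not known. The summed level of 6 CA1 pyramidal markers was 1216 to 1655 CPM, against 138 to 165 CPM for 6 CA3 pyramidal markers and 59.8 to 132 CPM for 7 dentate granule markers. These sums are over different genes of unlike abundance, so they do not measure the share of each region in the tissue. CPM is the reads of a gene scaled to library size after TMM normalisation. Levels are given as CPM, and spreads and fold changes on a log2 scale, in which log2 CPM has a prior count of 2. In bulk tissue, more cells of a type and more RNA per cell cannot be told apart.

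Sequence upstream of the members' start sites was looked up because 6 of them correlated with Ttr across libraries. RefSeq promoters (GRCm38.p6) were found for 5 members, namely Kl, Aqp1, Slc4a5, Calml4 and Otx2, with 8 start sites in all. None was found for Ttr itself, nor for Clic6, Folr1 or Sostdc1. The 250 bases before each start were searched on both strands for TAATCC, a motif bound by OTX homeodomain factors, and for TGTTTAC, a forkhead motif, and these do not overlap in letters. TAATCC was present before 1 of the 8 starts, one of those of Otx2, and in 6.25% of 32851 promoters. TGTTTAC was present before 0 of the 8 and in 3.17% of the 32851. The stretch of 30 bases of Otx2 that holds the match is shown with the motif, read on its reverse strand, in capitals (chr14:48665303-48665332, minus strand). The upstream sequences of Slc4a5, which correlated with Ttr (chr6:83237125-83237374, plus strand), and of Kl, whose correlation did not pass (chr5:150952357-150952606, plus strand), hold neither motif and so have no capitals. The stretches of Otx2 and Slc4a5 lie before start sites inside the annotated span of each gene, whereas that of Kl lies before its gene.
Otx2: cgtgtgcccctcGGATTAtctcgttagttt
Slc4a5: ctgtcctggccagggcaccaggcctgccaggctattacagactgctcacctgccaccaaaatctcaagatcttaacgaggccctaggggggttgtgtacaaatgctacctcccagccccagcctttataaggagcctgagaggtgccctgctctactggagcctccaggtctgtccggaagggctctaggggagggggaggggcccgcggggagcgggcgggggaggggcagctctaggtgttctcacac
Kl: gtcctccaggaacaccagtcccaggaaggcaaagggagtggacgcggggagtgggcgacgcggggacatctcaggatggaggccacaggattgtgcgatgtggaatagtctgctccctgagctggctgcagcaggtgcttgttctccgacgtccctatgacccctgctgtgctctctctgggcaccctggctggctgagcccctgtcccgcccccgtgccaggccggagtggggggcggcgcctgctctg

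The members differed widely in abundance. Per kilobase of exon, the median level over 19 libraries was 41.1 CPM for Enpp2, 4.38 CPM for Ttr, 2.14 CPM for Kl and 0.798 CPM for Sostdc1. Aqp1 followed at 0.225 CPM per kilobase and Clic6 at 0.211, with ranges over libraries that overlapped widely. The range of Ttr, from 0.495 to 72.3 CPM per kilobase, overlapped those of Enpp2, Kl and Sostdc1. Calml4 (0.0495), Folr1 (0.0469), Otx2 (0.0447) and Slc4a5 (0.0266) were the lowest in median CPM per kilobase, and their ranges overlapped as well. Enpp2 gave 86.4% of all reads assigned to the members, Kl 6.70% and Ttr 5.30%. A sum over the members is therefore mainly a measure of Enpp2, and each gene is given on its own.

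**Figure D1:**
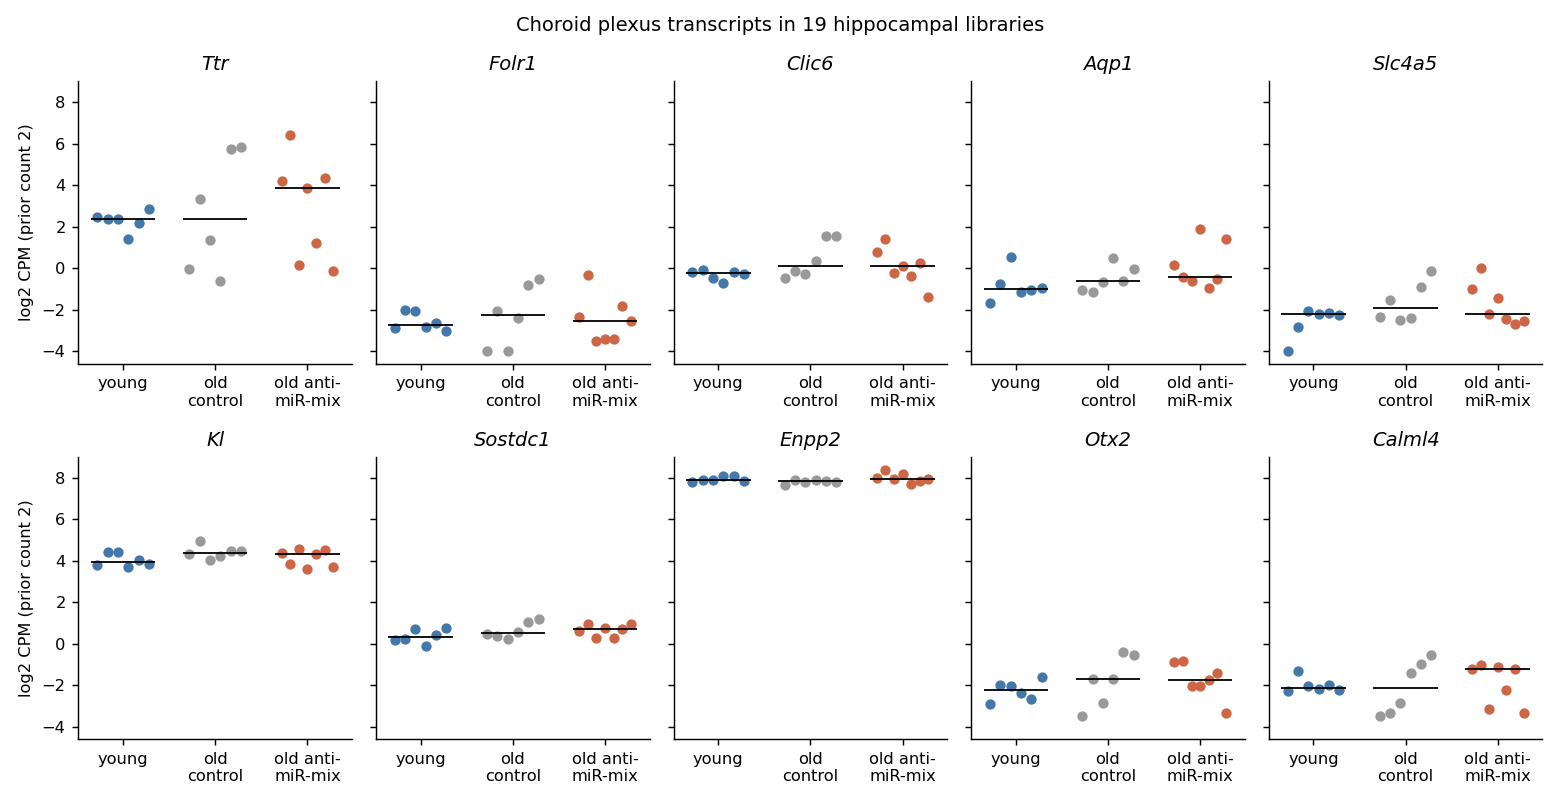
The 10 choroid plexus transcripts by library. Each point is 1 library (6 young, 6 old control, 7 old anti-miR-mix, in replicate order from left to right), the vertical axis is log2 CPM with a prior count of 2, and black lines are group medians. Ttr spans -0.62 to 5.86 in old control and -0.11 to 6.42 in old anti-miR-mix against 1.38 to 2.84 in young, whereas Enpp2 stays between 7.66 and 8.40 in all 19 libraries.

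Ttr, which encodes the carrier of thyroid hormone and retinol that the choroid plexus secretes in large amounts (ENSMUSG00000061808, chromosome 18, 20665280 to 20674321, plus strand of GRCm38), varied most. Young replicates 1 to 6 held 152, 136, 173, 98, 140 and 238 reads of it, or 2.55 to 7.07 CPM with a median of 5.16 CPM. Old control replicates 1 to 6 held 35, 285, 66, 19, 1704 and 1747 reads, or 0.926, 10.1, 2.49, 0.587, 53.7 and 57.9 CPM. Replicates 5 and 6, the most similar pair of libraries, stood far above the other 4, of which 3 lay below every young library. Old anti-miR-mix replicates 1 to 7 held 534, 2380, 41, 477, 75, 658 and 24 reads, or 18.1, 85.8, 1.05, 14.4, 2.24, 20.6 and 0.861 CPM. Here 4 libraries were above every young library and 3 were below every one. The highest library exceeded the lowest 146-fold over the series, 2.78-fold within young, 98.6-fold within old control and 99.6-fold within old anti-miR-mix. All groups overlapped.

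The biological coefficient of variation of Ttr in the edgeR fit was 1.09, which ranked 6 from the highest among 19286 genes. Of its sum of squares in log2 CPM, 1.47% lay between the 3 groups, against a median of 14.7% over all genes tested. Its standard deviation in log2 CPM was 0.49 in young (n = 6), 2.82 in old control (n = 6) and 2.47 in old anti-miR-mix (n = 7).

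Folr1, the folate receptor of the choroid plexus (ENSMUSG00000001827, chromosome 7, 101858331 to 101870788, minus strand), was near the limit of detection. It had 2 to 6 reads in young, 0 to 19 in old control and 1 to 20 in old anti-miR-mix libraries. Only old control replicates 5 and 6 (16 and 19 reads) and old anti-miR-mix replicate 2 (20 reads) held more than 7 reads, and these were the 3 libraries with the highest Ttr. Old control replicates 1 and 3 held 0 reads, which at this depth allows up to 3. The gene overlaps Anapc15 on the other strand, and no strand setting was stated for the counting.

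Of the transporters, Clic6, a chloride channel protein of secretory epithelia (ENSMUSG00000022949, chromosome 16, 92485736 to 92541243, plus strand), had 21 to 26 reads in the 6 young libraries, with a median of 23. Old control replicates 1 to 4 held 25, 24, 20 and 39 reads and replicates 5 and 6 held 92 and 87. In old anti-miR-mix the lowest was 9 reads in replicate 7, the median 34 and the highest 72 in replicate 2. The 3 libraries highest in Ttr were also the 3 highest in Clic6, and the lowest Clic6 library had the lowest Ttr in its group. The others did not all follow, since old control replicate 4, the lowest of the series in Ttr, was above every young library in Clic6, and old control replicate 2, at 10.1 CPM of Ttr, lay within the young range of Clic6.

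Slc4a5, an electrogenic sodium bicarbonate cotransporter (ENSMUSG00000068323, chromosome 6, 83219828 to 83304945, plus strand), had 0 to 6 reads in young, 3 to 26 in old control and 3 to 26 in old anti-miR-mix libraries. Its highest values were 26 reads in old control replicate 6, 26 in old anti-miR-mix replicate 2 and 15 in old control replicate 5, again the 3 libraries with the highest Ttr.

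Aqp1, the water channel of the apical membrane (ENSMUSG00000004655, chromosome 6, 55336432 to 55348555, plus strand), was high in other libraries. It had 7 to 46 reads in young with a median of 14.5, 11 to 43 in old control with a median of 17.5, and 15 to 121 in old anti-miR-mix with a median of 23. The highest values were 121 and 73 reads in old anti-miR-mix replicates 4 and 7, 46 in young replicate 3 and 43 in old control replicate 4. Of these, old anti-miR-mix replicate 7 and old control replicate 4 had the lowest Ttr in their groups, old anti-miR-mix replicate 4 had more Ttr than every young library, and young replicate 3 lay near the young median of Ttr.

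Of the secreted factors, Sostdc1, an antagonist of BMP and Wnt signalling (ENSMUSG00000036169, chromosome 12, 36314139 to 36318452, plus strand), had 30 to 56 reads in young, 30 to 68 in old control and 39 to 55 in old anti-miR-mix libraries. Its range in CPM was 2.55-fold over the series, and its 2 highest counts were in old control replicates 5 and 6 (64 and 68 reads). Kl, which encodes klotho, a coreceptor for FGF23 that is shed into the fluid and is also made by hippocampal neurons (ENSMUSG00000058488, chromosome 5, 150952607 to 150993817, plus strand), had 362 to 935 reads, with a highest level of 31.0 CPM. Its median was 15.4 CPM in young, 21.0 in old control and 20.3 in old anti-miR-mix. Enpp2, which encodes autotaxin, an enzyme that makes lysophosphatidic acid and that oligodendrocytes also express (ENSMUSG00000022425, chromosome 15, 54838901 to 54952892, minus strand), was the steadiest member. Its lowest, median and highest levels were 219, 236 and 276 CPM in young, 202, 227 and 240 CPM in old control and 211, 248 and 338 CPM in old anti-miR-mix. Kl and Enpp2 overlapped between all 3 groups.

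Otx2, the homeodomain factor that specifies this epithelium (ENSMUSG00000021848, chromosome 14, 48657677 to 48673819, minus strand), had 2 to 9 reads in young, 1 to 22 in old control and 1 to 14 in old anti-miR-mix libraries. Its highest counts were 22 and 19 reads in old control replicates 5 and 6 and 14 in old anti-miR-mix replicates 1 and 2. Calml4, a calmodulin-like protein of epithelial brush borders (ENSMUSG00000032246, chromosome 9, 62858080 to 62875921, plus strand), had 4 to 9 reads in young, 1 to 19 in old control and 1 to 13 in old anti-miR-mix libraries. Counts of this size carry a large counting error. Otx2, Calml4, Enpp2 and Clic6 each overlap an annotated non-coding gene or pseudogene, so some of their reads may belong to it.

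Over the 9 members tested, the median standard deviation within groups was 0.86 in log2 CPM, against 0.15 over all 19286 genes, and all 9 members lay above that gene-wide median. Groups accounted for a median of 15.4% of their spread, close to the 14.7% of all genes. The members of few reads include a larger counting error in this measure. Ttr was at the 99.99 percentile of all genes, whereas Enpp2 was at the 54.5 percentile. Ttr had a median of 152 reads, but only 19 in old control replicate 4 and 24 in old anti-miR-mix replicate 7. Counting error is larger in those libraries.

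The spread was also compared between groups gene by gene, by a two-sided permutation test of the mean absolute deviation from the group median. Exact here means that every arrangement of the libraries was counted. Deviations were taken from each group's own median before they were rearranged, so these p-values are approximate. The test was added after the values were seen, and the members were chosen with earlier results known. Counts of members beside the share over all genes are therefore a description, not a test of the members as a set. At an unadjusted exact p under 0.05, 3 of 9 members differed between old control and young, namely Ttr, Clic6 and Calml4, where 5.01% of all genes did. The standard deviation in old control was 5.81 times that in young for Ttr (exact permutation p = 0.00649), 3.93 times for Clic6 (exact permutation p = 0.0281) and 3.57 times for Calml4 (exact permutation p = 0.00649). No gene of the series passed adjustment for all genes, the lowest adjusted p being 0.309, and the smallest p that 924 arrangements allow is 0.00216. When the pair of similar libraries entered as 1, the exact permutation p was 0.0238 for Ttr, 0.195 for Clic6 and 0.0606 for Calml4. With both left out, the ratio for Ttr was 3.62 (exact permutation p = 0.0238), for Clic6 1.48 (exact permutation p = 0.490) and for Calml4 2.62 (exact permutation p = 0.210). The call for Ttr held on leaving out any 1 library, that for Clic6 was lost without any of young replicates 1, 2, 3, 5 or 6 or old control replicates 4, 5 or 6 (exact permutation p up to 0.195), and that for Calml4 without any 1 of the old controls (exact permutation p up to 0.0671). Old anti-miR-mix against young gave 1 of 9, Ttr, with a ratio of 5.08 (exact permutation p = 0.0449, 2.78% of all genes called). This call was lost without any of young replicates 1, 2, 3, 5 or 6 or old anti-miR-mix replicates 3, 5 or 7 (exact permutation p up to 0.0974). Without any 1 of old anti-miR-mix replicates 1, 2, 4 or 6 the exact permutation p was 0.00216, so it depended strongly on the library left out. Old anti-miR-mix against old control gave 0 of 9 where 2.78% of all genes were called, and the ratio for Ttr was 0.875 (exact permutation p = 0.611).

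**Figure D2:**
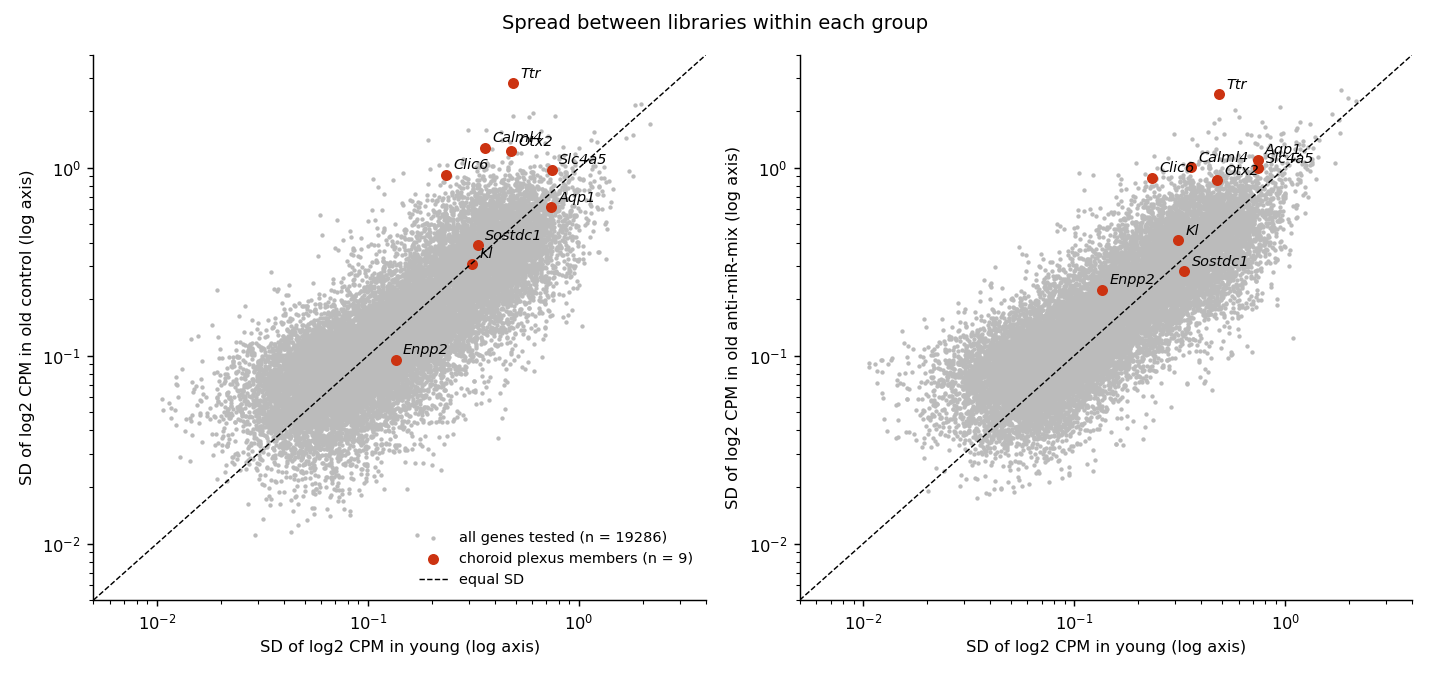
Standard deviation of log2 CPM within old control (left) and within old anti-miR-mix (right) against that within young, on log axes. Grey points are the 19286 genes tested, red points the 9 members that passed the read filter, and the dashed line marks equal spread; Ttr lies at 0.49 in young against 2.82 and 2.47 in the old groups, while Enpp2 and Kl lie near the line.

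In the comparison of old control with young, 0 of 9 members passed an adjusted p of 0.05 in edgeR, where 2.67% of all genes did (514 of 19286). Unadjusted p values under 0.05 were found for 3 members, Clic6, Slc4a5 and Kl, and for 18.1% of all genes. Log2 fold changes were positive for 8 of 9 members with a median of 0.41, against 0.01 over all genes. The estimate for Ttr was 2.08 ± 1.00 (SE, adjusted p = 0.278 in edgeR), for Clic6 1.05 ± 0.42 (adjusted p = 0.182 in edgeR), for Slc4a5 1.37 ± 0.66 (adjusted p = 0.275 in edgeR) and for Otx2 1.00 ± 0.57 (adjusted p = 0.369 in edgeR). Kl was at 0.38 ± 0.18 (adjusted p = 0.270 in edgeR). Apart from that of Kl, these estimates rested on old control replicates 5 and 6. Without both libraries the log2 fold change was -0.53 for Ttr, 0.22 for Clic6, 0.36 for Slc4a5, -0.10 for Otx2 and -0.73 for Calml4, while that of Kl was 0.36 and that of Enpp2 was -0.11.

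In old anti-miR-mix against old control, 0 of 9 members passed in edgeR, where 0.669% of all genes did (129 of 19286). Enpp2, at 0.20 ± 0.08 (log2 fold change and SE, edgeR adjusted p = 0.387), was the 1 member with an unadjusted p under 0.05, as were 10.5% of all genes. Ttr was at -0.05 ± 0.88 (adjusted p = 0.993 in edgeR) and Aqp1 at 0.97 ± 0.49 (adjusted p = 0.502 in edgeR). The standard error of Ttr shows how wide a difference this design leaves unresolved, and without old control replicates 5 and 6 its estimate became 2.57 (adjusted p = 0.612 in edgeR). A number from 1 to 4 per library, recovered from the deposited log2 table, is called the processing group here, though its source is not described. With it as a factor the estimate for Ttr was 1.17 (adjusted p = 0.844 in edgeR).

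In old anti-miR-mix against young, 0 of 9 members passed in edgeR, where 6.2% of all genes did (1196 of 19286). All 9 log2 fold changes were positive, with a median of 0.65 against 0.003 over all genes. Among the members 1, Aqp1, had an unadjusted p under 0.05 (1.26 ± 0.50, SE, adjusted p = 0.152 in edgeR), as did 19.6% of all genes. Ttr was at 2.03 ± 0.98 (adjusted p = 0.257 in edgeR) and at 0.84 in limma on the deposited log2 values. Its mean level was 4.97 CPM in young and 20.4 CPM in old anti-miR-mix, where replicate 2 alone was at 85.8 CPM. Its mean log2 CPM was closer between these groups, at 2.27 and 2.87. Slc4a5 was at 1.23, and at 0.67 without old anti-miR-mix replicate 2. The 3 comparisons share libraries, so their values are not independent of each other. The members share libraries too, so their equal signs are not separate observations. Over the 29 other settings run for each comparison, no member passed the threshold, and the lowest adjusted p was 0.0544, for Aqp1 in old anti-miR-mix against young.

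**Figure D3:**
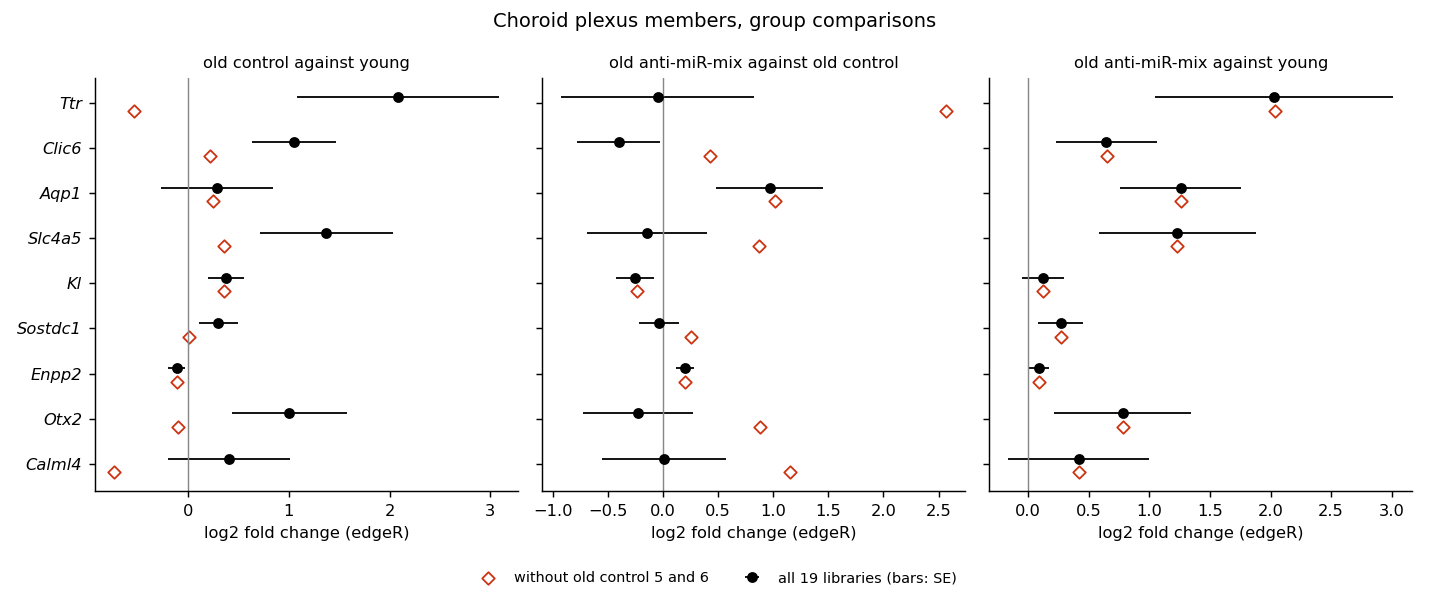
Log2 fold changes of the 9 members tested in the 3 group comparisons (edgeR). Filled points are estimates from all 19 libraries with bars of 1 SE, and open diamonds are estimates without old control replicates 5 and 6; in old control against young, Ttr moves from 2.08 to -0.53 when both are left out.

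Across the 19 libraries, 6 of the other 9 members correlated with Ttr in log2 CPM (permutation test, Benjamini-Hochberg over 9 relations). All 6 had an r above 0.5, as did 0.581% of the genes tested outside the members, for which no adjusted p is given. Pearson's r was 0.80 for Clic6 (rho 0.70, adjusted p = 0.00045 for r and 0.00438 for rho), 0.77 for Otx2 (rho 0.74, adjusted p = 0.00054 and 0.00351) and 0.76 for Folr1 (rho 0.66, adjusted p = 0.00057 and 0.00567). It was 0.71 for Calml4 (rho 0.69, adjusted p = 0.00148 and 0.00438), 0.69 for Slc4a5 (rho 0.58, adjusted p = 0.00148 and 0.0177) and 0.57 for Sostdc1 (rho 0.51, adjusted p = 0.0163 and 0.0383). Without old control replicate 6 and old anti-miR-mix replicate 2, the libraries farthest from the median of Ttr, r was 0.68 for Clic6, 0.68 for Otx2, 0.60 for Folr1, 0.61 for Calml4, 0.47 for Slc4a5 and 0.38 for Sostdc1. Without old control replicates 5 and 6, r was 0.70 for Clic6, 0.66 for Otx2, 0.64 for Folr1, 0.61 for Calml4 and 0.57 for Slc4a5, all of which passed, and 0.37 for Sostdc1 (permutation test, adjusted p = 0.179). The relation of Sostdc1 rested on few libraries, and its adjusted p was 0.0552 when the most similar pair entered as 1.

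The other 3 members did not pass over all 19 libraries. Enpp2 had r = 0.33 with Ttr (rho 0.14, adjusted p = 0.215 and 0.592), Kl r = 0.12 (rho 0.21, adjusted p = 0.704 and 0.516) and Aqp1 r = 0.00 (rho 0.13, adjusted p = 0.995 and 0.592). Enpp2 passed without old control replicates 5 and 6 (r = 0.55, permutation test, adjusted p = 0.0348), and its r was also 0.55 with the means of the 4 processing groups removed. However, the r of Enpp2 was 0.18 without the 2 libraries farthest from the median of Ttr. Within single groups it was -0.82 in young, 0.13 in old control and 0.64 in old anti-miR-mix. With the means of the 3 groups removed, r with Ttr was 0.85 for Clic6, 0.77 for Otx2 and 0.76 for Folr1, and with the means of the 4 processing groups removed it was 0.76, 0.73 and 0.75. Within young alone, where Ttr varied little, r was 0.71 for Clic6 and 0.78 for Sostdc1 but 0.04 for Folr1, 0.05 for Calml4 and -0.24 for Slc4a5 over 6 libraries.

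**Figure D4:**
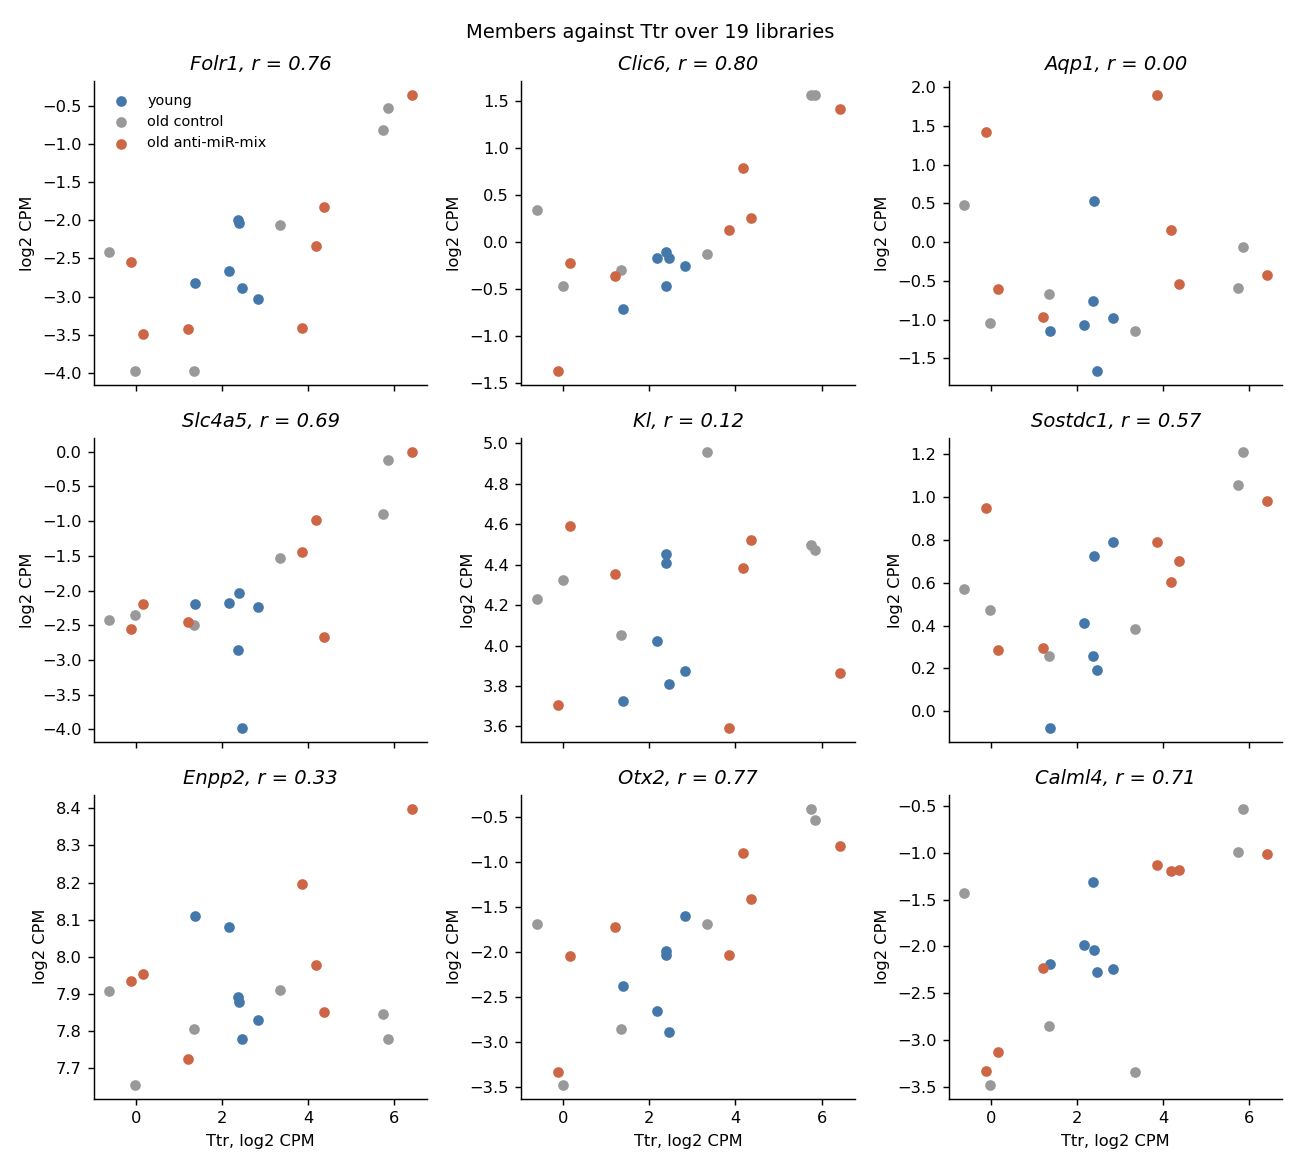
Log2 CPM of each of the other 9 members against that of Ttr in 19 libraries, coloured by group. Old control replicates 5 and 6 and old anti-miR-mix replicate 2 form the upper right end of the panels of Clic6, Folr1, Otx2, Slc4a5 and Calml4, whereas Aqp1 (r = 0.00) and Kl (r = 0.12) do not pass.

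Over 19 libraries, the genes whose log2 CPM was most like the mean of the members without Enpp2 were Tmem72 (r = 0.84), F5 (0.80), Sap30l (0.76), Kcne2 (0.75), Gm28050 (0.73), Ano7 (0.69), Med30 (0.69), Nsfl1c (0.69), Tril (0.66) and Gm27008 (0.66). Tmem72, coagulation factor F5 and the potassium channel subunit Kcne2 belong to a wider list of 32 choroid plexus genes. Tmem72 had 4 to 46 reads, with 27 and 22 in old control replicates 5 and 6 and 46 in old anti-miR-mix replicate 2. Of the 26 genes of that list that were tested, 4 had an r above 0.5 with Ttr, as did 0.581% of all genes tested. The relation of the whole list to Ttr did not pass, since its summed level of 146 to 251 CPM had r = 0.27 (rho 0.34, permutation test, adjusted p = 0.664 and 0.468). Its most abundant genes, Trpm3 (mean 33.4 CPM), Igf2 (33.1), Slc31a1 (24.3) and Igfbp2 (16.0), are also expressed outside the epithelium.

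Within this list 1 of 26 genes passed in old control against young in edgeR (2.67% of all genes), 0 in old anti-miR-mix against old control (0.669%) and 2 in old anti-miR-mix against young (6.2%), which is near the share over all genes. Trpv4, a cation channel gated by osmolarity, exceeded the young level by a log2 fold change of 0.51 ± 0.12 in old control (SE, edgeR adjusted p = 0.0294) and of 0.64 ± 0.12 in old anti-miR-mix (edgeR adjusted p = 0.00152). Igfbp2, an insulin-like growth factor binding protein, was higher in old anti-miR-mix than in young by 0.60 ± 0.16 (adjusted p = 0.0268 in edgeR). Their r with Ttr was 0.21 and 0.14.

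The 3 members whose relation to Ttr did not pass were set against the summed markers of other cell types and regions, together with Ttr itself, in 36 relations adjusted together. Enpp2 correlated with the sum of 9 oligodendrocyte genes at r = 0.80 (rho 0.84, permutation test, adjusted p = 0.0018 and 0.00072) and at 0.87 without the 2 libraries farthest from its median. The sum of those genes was 7370 to 11695 CPM in young, 6506 to 7750 in old control and 6620 to 9790 in old anti-miR-mix. Among the genes most like Enpp2 were Kif5a (r = 0.90), 1700047M11Rik (0.89), Myo1d (0.89) and Scd2 (0.89). In old control against young, 5 of the 9 oligodendrocyte genes were lower in edgeR, as were 259 of all 19286 genes, among them Mog at -0.55 ± 0.10 (adjusted p = 0.00397) and Cldn11 at -0.62 ± 0.12 (adjusted p = 0.00864), where Enpp2 was at -0.11 ± 0.09 (adjusted p = 0.535).

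Kl correlated with the sum of 6 CA1 pyramidal genes at r = 0.79 (rho 0.78, permutation test, adjusted p = 0.00234 and 0.00306). Its relation was negative with the sum of 6 CA3 pyramidal genes (r = -0.73, rho -0.72, adjusted p = 0.0054 and 0.00972) and with that of 10 thalamic genes (r = -0.66, rho -0.71, adjusted p = 0.0189 and 0.00972). Without the 2 libraries farthest from the median of Kl these were 0.71, -0.64 and -0.65. Each list enters as a sum, in which the most abundant genes weigh most. Mean levels of single genes ran from 79.2 to 509 CPM in the CA1 list. They ran from 0.215 to 77.2 CPM in the CA3 list and from 1.25 to 69.5 CPM in the thalamic list. Relations of Kl with the single genes of these lists were not tested. The 5 genes most like Kl, listed after its values were seen, were Nr3c2 (r = 0.93), the mineralocorticoid receptor, Slitrk5 (0.93), Pfn2 (0.93), Exoc4 (0.93) and Arl15 (0.93).

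No list passed with Ttr or with Aqp1. The strongest relation of Ttr was with the dentate granule list (r = -0.56, rho -0.53, permutation test, adjusted p = 0.0885 and 0.149), and with the leptomeningeal list (54.1 to 228 CPM) it was 0.20 (rho 0.19, adjusted p = 0.737 and 0.679). Within the 6 young libraries alone, r of Ttr was 0.98 with the leptomeningeal list and -0.96 with the oligodendrocyte list, against 0.22 and -0.45 in old control and 0.15 and 0.31 in old anti-miR-mix. Ttr against the ependymal list (7.40 to 14.8 CPM) was at r = -0.22 (rho -0.34, adjusted p = 0.737 and 0.468). For Aqp1 the strongest was with blood (up to 44.9 CPM, r = -0.53, rho -0.47, adjusted p = 0.119 and 0.197). No gene of these lists was at 0 in all libraries. In old control against young, Slc13a3 of the leptomeningeal list was lower (-0.65 ± 0.17, edgeR adjusted p = 0.0429) and Synpo2 of the thalamic list higher (0.44, edgeR adjusted p = 0.00864). In old anti-miR-mix against young, Synpo2 (0.46, edgeR adjusted p = 0.00154), Prkcd of the thalamic list (0.50, edgeR adjusted p = 0.0113) and Rarres2 of the ependymal list (0.51, edgeR adjusted p = 0.0466) were higher, and Wfs1 of the CA1 list was lower (-0.36, edgeR adjusted p = 0.0366). No other gene of these lists passed in those comparisons besides the oligodendrocyte genes, and none of any list passed between the old groups. The 5 genes most like Aqp1, also listed after its values were seen, were Sod3 (r = 0.91), Eif4ebp1 (0.87), Acod1 (0.87), Mmp3 (0.87) and P2ry2 (0.86). Acod1, which makes itaconate in activated macrophages, had a median of 11 reads but 181 and 137 in old anti-miR-mix replicates 4 and 7. Mmp3, a matrix metalloproteinase, had a median of 8 reads but 481 and 647 in the same libraries, 139 in old control replicate 4 and 106 in young replicate 3. Those were the 4 libraries in which Aqp1 was highest. The part of such genes in the level of Aqp1 was not tested.

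**Figure D5:**
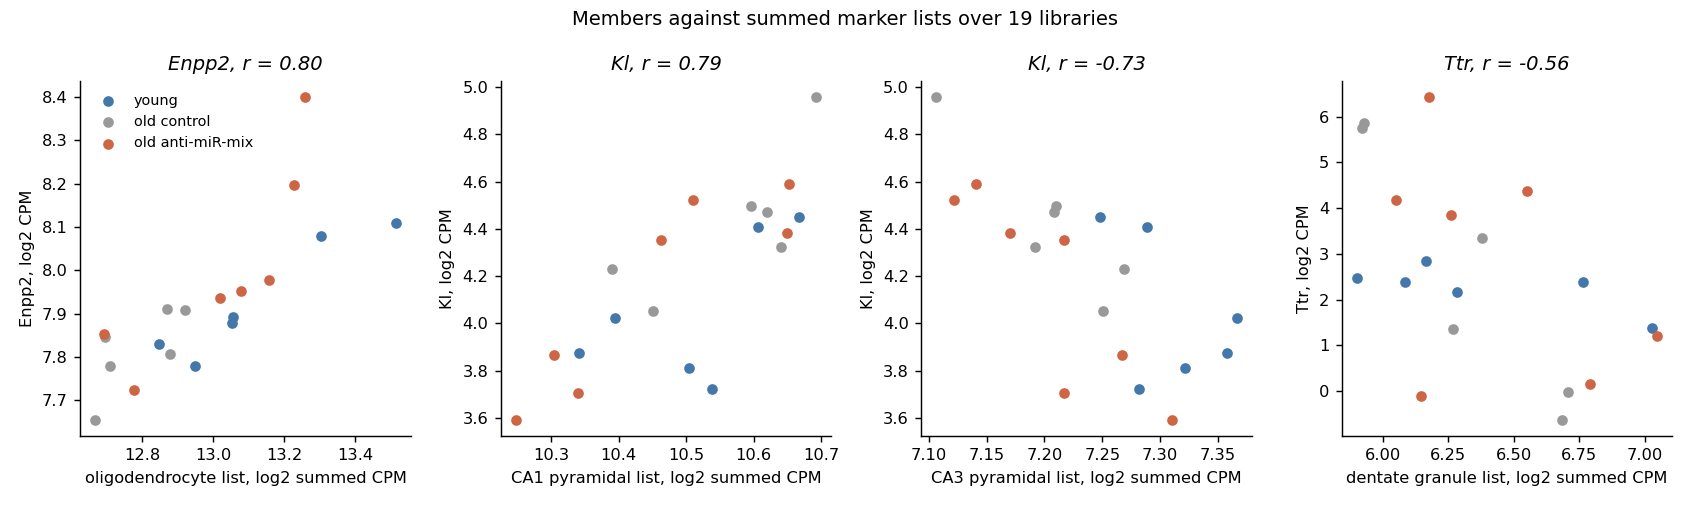
Members against summed marker lists over 19 libraries, both axes in log2 CPM and coloured by group. Enpp2 against oligodendrocyte genes (r = 0.80) and Kl against CA1 (r = 0.79) and CA3 genes (r = -0.73) pass adjustment, and Ttr against dentate granule genes (r = -0.56) does not.

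The high and low Ttr libraries were not all of 1 processing group. Group 4 held old control replicates 5 and 6 and old anti-miR-mix replicate 6 (20.6 CPM), and also young replicates 5 and 6 at 4.44 and 7.07 CPM. Group 2 held both the highest library, old anti-miR-mix replicate 2 at 85.8 CPM, and libraries at 0.587, 0.861, 2.49 and 5.13 CPM. Group 3 held old anti-miR-mix libraries between 1.05 and 14.4 CPM and no old control, and group 1 held libraries from 0.926 to 18.1 CPM. Replicates 5 and 6 were the only old controls in group 4, so within old control their high level and that group cannot be told apart. Whether the amount of choroid plexus tissue differed between the dissections was not tested.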

How the data were processed

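Groups were taken from the labels. The authors sequenced polyadenylated RNA of CA1 tissue (TruSeq, 50-base single-end reads), aligned the reads to mm10 with STAR 2.5.2b and counted with featureCounts (Subread 1.5.1). The deposited counts are raw reads per Ensembl gene. The authors also deposited log2 values for 18761 genes, which equalled log2(CPM + 1) minus a gene's slope times a number from 1 to 4 per library (within 3.4e-08). That number, whose source is not described, is called the processing group as a name only. Its scale was set by taking the smallest value as 1, and whether it marks a technical batch is not known. Slc4a5 and Folr1 are not among those genes. Every column of counts had a library.

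Genes of 5 or more reads in 50% or more of the libraries were tested by edgeR 4.0.16 quasi-likelihood (R 4.3.3, TMM, all 3 groups in one fit, Benjamini-Hochberg, threshold 0.05). DESeq2 1.42.0 (which the study used), limma 3.58.1 on the deposited values, other scalings, filters and covariates, and leaving out each library were alternatives. Correlations used 100000 permutations. The test of spread was added after the values were seen. Steps were tested on simulated data. Symbols and coordinates came from GENCODE M21 (GRCm38). Depth, 26653511 to 38908947 reads per library, sets the precision of counts.

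The members, lists and tests were chosen with earlier results of these data known. Genes named were all members, genes of the wider choroid plexus list past the threshold (up to 4) or most abundant (4), the 10 genes most like the members and 5 most like Enpp2, and up to 3 genes past the threshold of each other list, of which some are not reported here.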

Additional observations from a re-analysis of the deposited data

Results flagged for a closer look

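Of 30 groups of values examined (10 members in 3 groups), 1 had a library far from the others. Calml4 in young was highest in replicate 2, at -1.31 in log2 CPM against -2.27 to -1.98 in the other 5 libraries. The gap was 0.696 of the group's range, above the critical value of 0.625 for 6 libraries. It amounted to 9 reads against 4 to 6. Chance flags about 1 in 20 groups.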

How the results depend on the processing

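No member passed in any setting of any comparison. Of 780 repeated log2 fold changes of members, 732 kept their sign and 48 did not. In old control against young, leaving out old control replicates 5 and 6 together, a choice made after seeing the data, gave -0.53 for Ttr, -0.10 for Otx2 and -0.73 for Calml4. Leaving out 1 library at a time gave -0.00179 to 0.79 for Aqp1 and -0.076 to 0.68 for Calml4.

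In old anti-miR-mix against old control, Ttr was at 1.17 with processing group as a factor, 0.52 with it as a linear term, 0.47 with old control replicates 5 and 6 as 1 library, 1.39 with that and the factor, 0.060 in limma on the deposited values and 2.57 without both libraries. Without both, Clic6 was at 0.43, Slc4a5 at 0.87, Sostdc1 at 0.25 and Otx2 at 0.88. With processing group as a factor Slc4a5 was at 0.15, Sostdc1 at 0.079 and Otx2 at 0.13. With both libraries as 1, Slc4a5 was at 0.00234 and Sostdc1 at 0.045, and with the factor added Clic6 was at 0.094, Slc4a5 at 0.24, Sostdc1 at 0.12 and Otx2 at 0.21. Leaving out 1 library at a time gave -1.14 to 0.57 for Ttr, -0.70 to 0.40 for Slc4a5, -0.11 to 0.10 for Sostdc1, -0.50 to 0.17 for Otx2 and -0.26 to 0.50 for Calml4. The cause was not tested.

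Replicate numbers did not clearly pair the libraries, though a partial pairing cannot be told from these values. Over 18 pairs of the same number r was -0.33 to 0.36, with a median of 0.088 and 8 pairs over 0.1. Over 102 other pairs it was -0.42 to 0.48, with a median of -0.013 and 26 pairs over 0.1. Only 4 libraries correlated best with their own number. With replicate number as a block, Ttr was at 0.49, Slc4a5 at 0.018 and Otx2 at 0.040 in old anti-miR-mix against old control, and 249 genes passed in place of 129, 651 in place of 514 in old control against young, and 1192 in place of 1196 in old anti-miR-mix against young.

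The number of genes past the threshold in old control against young was 914 in DESeq2, 323 with no read filter, 305 with old control replicates 5 and 6 as 1 library, 223 with that and processing group, 151 without both, and 212 to 691 leaving out 1 library. In old anti-miR-mix against old control it was 267 in DESeq2, 9 with processing group as a factor, 33 with both libraries as 1, 6 with that and processing group, 0 without both (edgeR, 1370 genes at an unadjusted p under 0.05), and 23 to 247 leaving out 1 library.

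The deposited log2 values add 1 CPM to every gene and have a gene's slope times the processing group number taken off. On them the standard deviation of Ttr in old control was 1.85. The median over the members tested was 0.26, without Slc4a5, which is absent from those values. Without old control replicates 5 and 6 that of Ttr in old control was 1.76. Leaving out 1 young library gave 0.24 (without replicate 4) to 0.54 for Ttr in young. The call on the spread of Ttr in old control against young held on leaving out any 1 library (ratio 5.22 to 11.6, exact permutation p = 0.00649 to 0.0238). On the deposited values the other calls on spread were lost, with an exact permutation p of 0.149 for Clic6 and 0.145 for Calml4 in old control against young and 0.0519 for Ttr in old anti-miR-mix against young. The number of members correlated with Ttr was 5 to 6 leaving out 1 library. Members of fewer than 30 reads are limited by counting error.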
